A study of Mus musculus with 2 samples.

Results

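The genes studied here encode the carriers that move amino acids and closely related molecules across cell membranes, in the solute carrier (SLC) families SLC1, SLC3, SLC6, SLC7, SLC36, SLC38 and SLC43. They were chosen by symbol, as every listed gene named for 1 of these families except the arginine carrier genes Slc7a1 and Slc7a2. The choice gave 61 of the 30538 genes in the table. One of them, Slc7a6os, is named only for its place beside Slc7a6 on the opposite strand and is not known as a carrier. RNA was sequenced from splenic cells sorted as CD11b-positive, Ly6G-negative and Ly6C-low, which the labels call resident macrophages, 3 days after intravenous infection of mice with 100000 *Listeria monocytogenes*. About 100000 cells were sorted. The study has 2 samples of 1 library each, 1 from infected C57BL/6 mice and 1 from infected Ch25h-/- mice, which lack cholesterol 25-hydroxylase, the enzyme that makes 25-hydroxycholesterol. Both genotypes were infected, and no uninfected sample was analysed here. The labels give neither the age nor the number of mice behind a library, nor how the Ch25h allele was made. With 1 library per genotype there is no spread between replicates, so no test between the genotypes was made.

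Amino acid carriers set which nutrients a cell can take up. SLC7 light chains pair with a heavy chain from SLC3 to form exchangers at the cell surface, SLC1 and SLC38 carriers bring in glutamine and other neutral amino acids with sodium, and SLC36 carriers and some SLC38 carriers act on lysosomes, where amino acids are sensed by the kinase complex mTORC1. In activated macrophages and lymphocytes these carriers feed protein synthesis, glutathione synthesis and signalling, and several of them are known targets of ATF4, the transcription factor of the amino acid starvation response.

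The main carriers of neutral amino acids were at close to the same level in both libraries, whereas the cystine carrier gene Slc7a11 and the rare carrier gene Slc43a1 were lower in the Ch25h-/- sample. Slc7a11 was 2.43-fold lower and Slc43a1 3.18-fold lower. The glutamine carrier genes Slc38a2, Slc38a1 and Slc1a5 and the leucine carrier gene Slc7a5 had log2 ratios (Ch25h-/- over C57BL/6) from -0.01 to 0.05. Slc3a2, the heavy chain that Slc7a5 and Slc7a11 share, was 1.48-fold lower. Slc43a3, the neighbour of Slc43a1, had the largest ratio in the other direction and was 1.83-fold higher. In RNA from bulk cells, fewer cells of a type and less RNA per cell cannot be told apart.

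A gene was counted as measured when the mean of both libraries was at least 1 CPM, the unit of counts scaled to library size with TMM factors. Of the 61 genes, 26 were measured, and each of the 26 had at least 1 CPM in both libraries. A gene was called lower or higher when its ratio was at least 2-fold and its exact 95% interval excluded a ratio of 1. That interval covers counting error only. Slc7a11 and Slc43a1 were called lower, 2 of 26 or 7.69%, beside 5.77% of all 11972 measured genes. None of the 26 was called higher, beside 2.07% of all measured genes. With 26 genes, these shares lie near those of all genes.

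Intervals on 1 side of a ratio of 1 lay below it more often than above. The whole interval lay below a ratio of 1 for 9 of the 26 genes (34.6%), beside 27.5% of all measured genes. It lay above a ratio of 1 for 3 of the 26 (11.5%), beside 31.0% of all measured genes. The median log2 ratio of the 26 genes was -0.09, and that of all measured genes was 0.01. For 22 of the 26 (84.6%) the libraries differed by less than 1.5-fold, which held for 80.1% of all measured genes. Summed over the 61 genes, the carriers took 2196 CPM in the C57BL/6 sample and 2042 CPM in the Ch25h-/- sample, a log2 ratio of -0.11 (95% counting interval -0.13 to -0.08).

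**Figure D1:**
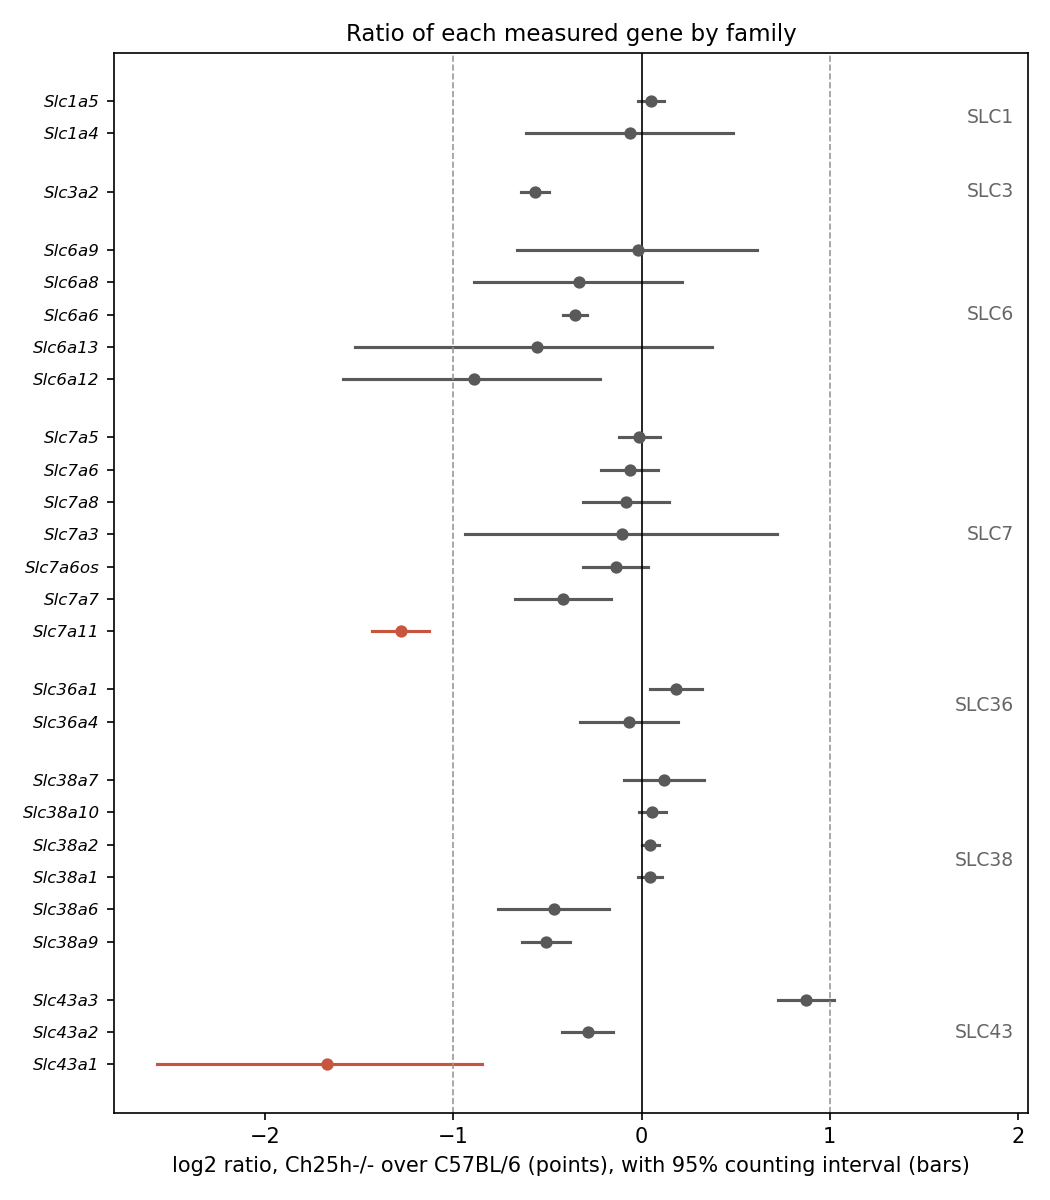
Log2 ratio of the Ch25h-/- sample over the C57BL/6 sample (horizontal axis) for each of the 26 measured genes, grouped by family, with 95% counting intervals as bars. Dashed lines mark a 2-fold difference; Slc7a11 and Slc43a1, in red, lie beyond the lower line, and no gene lies beyond the upper one.

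The libraries held 16957371 counts (C57BL/6) and 15986392 counts (Ch25h-/-). The targeted gene Ch25h had 3 counts and 0 counts, which is too few to check the genotype labels. Markers of other cell types than macrophages were read in both samples, and many differed between them. Summed levels follow as C57BL/6, then Ch25h-/-, over every gene of a list, measured or not. The calls stand beside 5.77% of all measured genes called lower and 2.07% called higher. The whole interval lay below a ratio of 1 for 27.5% of all measured genes and above it for 31.0%. Of 11 red pulp macrophage markers, 3 were called lower and none higher (348 and 230 CPM), as were 2 of 4 measured marginal zone macrophage markers (91.5 and 44.2 CPM, with Cd209b at 0 in both). All 12 natural killer (NK) cell markers lay above a ratio of 1, with 4 called higher (12854 and 20748 CPM). Of 9 measured conventional dendritic cell markers, 8 were called lower (1931 and 766 CPM; Xcr1 had 0 counts in the C57BL/6 sample). Called lower were also 2 of 9 B cell markers (1436 and 880 CPM) and 4 of 6 plasma cell markers (548 and 394 CPM). Irf4 is counted in both the plasma cell and the dendritic cell lists. Of 9 eosinophil, basophil and mast cell markers, 2 were called lower, Epx and Prg2 (all 9 summed to 243 and 165 CPM). Called higher were 5 of 11 neutrophil markers (1118 and 2001 CPM), 2 of 6 Ly6C-high monocyte markers (1824 and 2815 CPM) and 5 of 10 proliferation genes (1346 and 2469 CPM). The intervals of all 6 Ly6C-high monocyte markers and all 10 proliferation genes lay above a ratio of 1. Of Ly6C-low monocyte markers 1 of 9 was called lower (2382 and 2873 CPM), and of T cell markers 1 of 10 was called lower and 1 higher (458 and 539 CPM). The sum of the Ly6C-low monocyte markers hides their split. The whole interval lay below a ratio of 1 for 6 of these 9 genes and above it for 3. Among T cell markers it lay below for 3 of 10 and above for 3. Among eosinophil, basophil and mast cell markers it lay below for 4 of 9 and above for 3. It lay below for 8 of 11 red pulp macrophage markers and above for 1. Measured dendritic cell markers had 8 of 9 below and 1 above, and neutrophil markers 1 of 11 below and 9 above. B cell markers had 8 of 9 below and 0 above. All 6 plasma cell and all 4 measured marginal zone macrophage markers lay below. Of 9 erythroid markers 2 were measured (all 9 summed to 177 and 317 CPM), and of 5 megakaryocyte and platelet markers 1 was measured (all 5 summed to 16.8 and 11.3 CPM), and none of these was called. The part of these cell types in the carrier ratios was not tested.

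Slc3a2 encodes the heavy chain of CD98, which brings its light chain partners to the cell surface. It lies on GRCm38 chromosome 19 (8706882 to 8723369, minus strand). It had 3791 counts in the C57BL/6 sample and 2369 in the Ch25h-/- sample, or 221.5 and 149.5 CPM, a log2 ratio of -0.57 (95% counting interval -0.64 to -0.49). The other heavy chain gene, Slc3a1, which serves the kidney and gut carriers, had 17 and 12 counts and was not measured.

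Of the 10 heteromeric light chain genes, 5 were measured. Slc7a5 encodes LAT1, the carrier of leucine and other large neutral amino acids. It had 84.3 CPM in the C57BL/6 sample and 83.6 CPM in the Ch25h-/- sample, a log2 ratio of -0.01 (-0.12 to 0.10). Slc7a8, a second carrier of large neutral amino acids, had 19.99 and 18.87 CPM, and Slc7a6, which exchanges cationic for neutral amino acids, had 44.2 and 42.3 CPM. The intervals of all 3 genes held a ratio of 1. Slc7a7, the partner carrier of cationic amino acids that lets arginine leave cells, had 18.5 and 13.8 CPM, a log2 ratio of -0.42 (-0.67 to -0.16). Its exons overlap those of Oxa1l on the other strand, and whether reads were assigned by strand is not stated. The same limit holds for all 6 measured genes with such exon overlap, the others being Slc38a9, Slc38a10, Slc6a6, Slc6a9 and Slc43a2.

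Slc7a11 encodes xCT, the light chain that imports cystine in exchange for glutamate and so supplies cysteine for glutathione. The gene lies on GRCm38 chromosome 3 (49892526 to 50443614, minus strand). It had 1261 counts in the C57BL/6 sample and 481 in the Ch25h-/- sample, or 73.7 and 30.4 CPM. The log2 ratio was -1.28 (95% counting interval -1.43 to -1.13), and its interval overlapped that of none of the other 4 measured light chains or of Slc3a2. Among all 11972 measured genes, ranked from the lowest ratio, Slc7a11 stood at percentile 3.73 and Slc3a2 at percentile 12.5. Among the counts of the 5 light chains, Slc7a11 took 30.6% in the C57BL/6 sample (29.2 to 32.0%, exact binomial) and 16.1% in the Ch25h-/- sample (14.8 to 17.4%). These shares are not corrected for exon length, and Slc7a11 has the most exon bases of the 5 genes.

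Levels can be compared between genes only per length, so counts were also divided by the kilobases of annotated exon (CPM per kilobase). On this scale Slc3a2 had 62.8 in the C57BL/6 sample and 42.4 in the Ch25h-/- sample. The 5 light chains summed to 47.3 and 41.9. Heavy chain over summed light chains was thus 1.33 in the C57BL/6 sample (95% counting interval 1.27 to 1.39) and 1.01 in the Ch25h-/- sample (0.956 to 1.07). Slc7a5 was the most abundant light chain per length, with 48.1% of the light chain sum in the C57BL/6 sample and 53.8% in the Ch25h-/- sample. Slc7a11 took 11.2% and 5.2% of that sum. Exon length was taken over all annotated transcripts of a gene, so a gene with long, little-used exons, such as Slc7a11 with 13922 bases, can be understated on this scale.

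**Figure D2:**
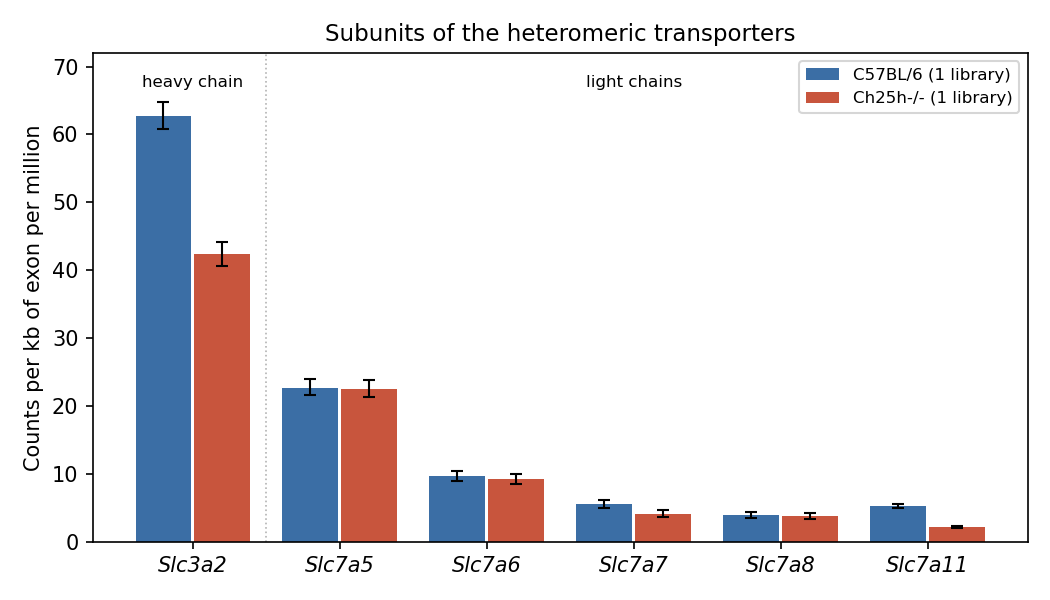
CPM per kilobase of exon (vertical axis) of the heavy chain Slc3a2 and the 5 measured light chains in the C57BL/6 sample (blue) and the Ch25h-/- sample (red). Error bars are exact 95% Poisson intervals of the counts; Slc3a2, Slc7a11 and Slc7a7 are separated between the libraries, while Slc7a5, Slc7a6 and Slc7a8 are at like levels.

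The start of Slc7a11 was compared with those of the other carriers for the amino acid response element, the site that ATF4 binds. RefSeq promoter windows (GRCm38.p6, from 250 bases before to 50 after the start) were matched for 44 of the 61 genes. The letters TTGCATCA, on either strand, were found in windows of 3 of these 44 genes, Slc7a11, Slc7a7 and Slc1a4, and in those of 279 of all 27025 genes (1.03%). Slc7a11 held 2 copies in opposite orientation, 11 bases apart. The stretches at these starts are shown because they carry the element, in capitals. The Slc7a11 stretch is chr3:50443614-50443713 (minus strand) and ends at the base before the start. Those of Slc1a4, chr11:20332710-20332773 (minus strand), and Slc7a7, chr14:54417938-54418004 (minus strand), end with the element, which crosses the start. Slc7a7 has another RefSeq start, and the same element begins 243 bases before it.

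Slc7a11: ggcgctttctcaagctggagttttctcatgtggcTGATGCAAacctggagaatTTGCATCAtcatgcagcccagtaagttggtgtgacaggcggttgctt

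Slc1a4: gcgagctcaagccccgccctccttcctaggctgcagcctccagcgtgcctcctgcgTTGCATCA

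Slc7a7: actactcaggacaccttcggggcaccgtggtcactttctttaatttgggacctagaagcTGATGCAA

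The 3 genes with the element had log2 ratios of -1.28 (Slc7a11), -0.42 (Slc7a7) and -0.06 (Slc1a4). The intervals of Slc7a7 (-0.67 to -0.16) and Slc1a4 (-0.61 to 0.49) overlapped each other, and that of Slc7a11 (-1.43 to -1.13) overlapped neither. A part of the element in these ratios was not tested. The looser form TGATGNAA, which includes the reverse complement of the first, was found in the same 3 of 44 genes and in 4.51% of all genes. The antioxidant response element TGACNNNGC, bound by NRF2, was found in windows of 8 of the 44 genes and in 13.99% of all genes. Of these 8, 6 were measured: Slc38a2, Slc36a1, Slc7a6, Slc6a9, Slc6a13 and Slc43a1. No match to it was found for Slc7a11. A match of letters is a description and was not measured as binding.

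The sodium-coupled carriers of neutral amino acids held the largest share of carrier reads, and the main ones had ratios close to 1. Slc38a2 encodes SNAT2, which takes up alanine, glutamine and other small neutral amino acids. It had the most counts of the 61 genes, 8417 in the C57BL/6 sample and 8045 in the Ch25h-/- sample, or 22.4% and 24.9% of all carrier counts. Its level was 492 and 508 CPM, a log2 ratio of 0.05 (0.00167 to 0.09), and its interval included 0 with DESeq2 size factors (-0.00326 to 0.09) and with total counts (-0.02 to 0.06). Its neighbour on chromosome 15, Slc38a1, which encodes the glutamine carrier SNAT1, had 244 and 252 CPM (0.05, interval -0.02 to 0.11). A gap of 44478 bases separates these genes, and their log2 ratios differed by less than their counting error.

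Slc1a5, the gene of the glutamine carrier ASCT2, had 216 CPM (3696 counts) in the C57BL/6 sample and 224 CPM (3543 counts) in the Ch25h-/- sample. Its log2 ratio was 0.05 (-0.02 to 0.12). Slc1a4, which carries alanine, serine and cysteine, had few reads, 62 and 55 counts (-0.06, interval -0.61 to 0.49). Slc38a10 had 179 and 186 CPM (0.06, interval -0.02 to 0.13), and Slc38a7, which lets glutamine out of lysosomes, had 21.3 and 23.2 CPM (0.12, interval -0.09 to 0.33). The interval of each of these 4 genes held a ratio of 1.

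Among carriers tied to lysosomes, Slc38a9 stood apart from Slc36a1. Slc38a9 encodes the lysosomal arginine sensor that signals to mTORC1. It had 1273 counts (74.4 CPM) in the C57BL/6 sample and 829 counts (52.3 CPM) in the Ch25h-/- sample, a log2 ratio of -0.51 (-0.64 to -0.38). Slc36a1, a proton-coupled exporter of small amino acids from lysosomes, had 48.97 and 55.67 CPM, a log2 ratio of 0.18 (0.05 to 0.32). The intervals of these carriers lay on opposite sides of a ratio of 1, and neither difference reached 2-fold. Slc36a4, a further member of that family, had 15.3 and 14.6 CPM (-0.06), and Slc38a6 had 14.03 and 10.16 CPM, a log2 ratio of -0.46 (-0.76 to -0.17).

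**Figure D3:**
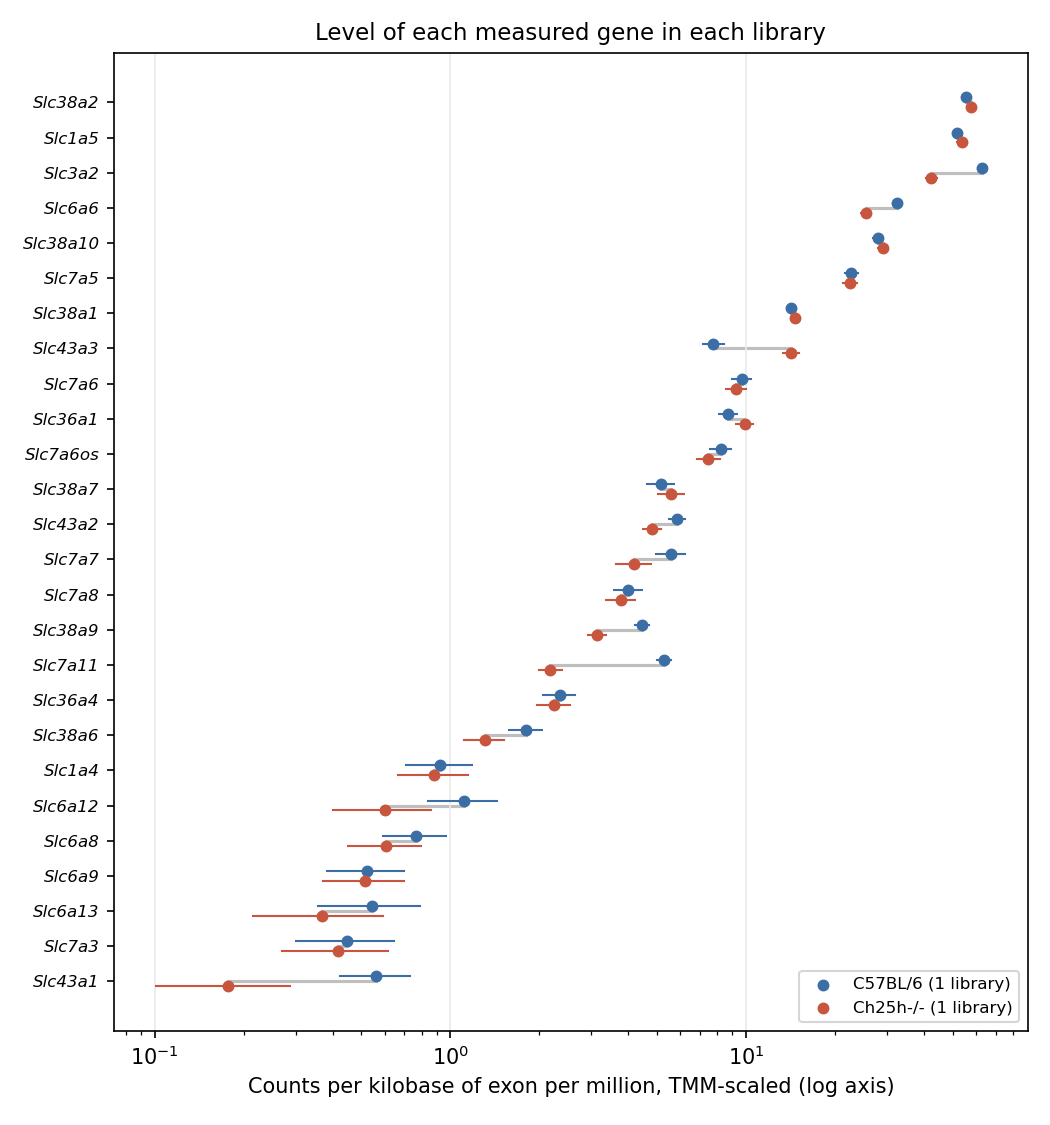
Level of each measured gene, in CPM per kilobase of exon on a log axis, in the C57BL/6 sample (blue) and the Ch25h-/- sample (red), with exact 95% Poisson intervals of the counts as bars. Genes are ordered by the mean of both libraries; Slc38a2, Slc1a5 and Slc3a2 are the top 3, and the grey line between points is longest for Slc43a1 and Slc7a11.

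Per length, Slc3a2 ranked first in the C57BL/6 sample (62.8), followed by Slc38a2 (55.7) and Slc1a5 (51.8). In the Ch25h-/- sample the order was Slc38a2 (57.5), Slc1a5 (53.6) and Slc3a2 (42.4). The counting intervals of these 3 genes did not overlap each other within either sample. Slc6a6, Slc38a10, Slc7a5 and Slc38a1 took the next ranks, 4 to 7, in both libraries, with the first 2 of them trading places. Further down, neighbours often overlapped: Slc43a2 (5.87) and Slc7a7 (5.57) could not be ordered in the C57BL/6 sample.

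The SLC6 family moves taurine, creatine, glycine, betaine, GABA and monoamines, and 5 of its 20 genes were measured. Slc6a6, the taurine carrier gene, was far above the others per length, at 32.4 and 25.4 beside at most 1.11 for any other SLC6 gene in the C57BL/6 sample (Slc6a12) and at most 0.6058 in the Ch25h-/- sample (Slc6a8). Slc6a6 had 4695 counts (274 CPM) in the C57BL/6 sample and 3400 counts (215 CPM) in the Ch25h-/- sample, a log2 ratio of -0.35 (-0.42 to -0.29). The betaine and GABA carrier gene Slc6a12 had 58 and 29 counts (-0.89, interval -1.58 to -0.22), and its neighbour on chromosome 6, the GABA carrier gene Slc6a13, had 27 and 17 counts (-0.56, interval -1.52 to 0.37). The creatine carrier gene Slc6a8 had 68 and 50 counts (-0.33) and the glycine carrier gene Slc6a9 had 46 and 42 counts (-0.02), and the intervals of both held a ratio of 1. All 5 ratios were under 1, beside 48.2% of all measured genes. Only the intervals of Slc6a6 and Slc6a12 lay wholly below 1, beside 27.5% of all measured genes.

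The 3 SLC43 genes were all measured and went different ways. Slc43a1 encodes LAT3, a carrier of branched-chain amino acids and phenylalanine. It lies on chromosome 2 (84838850 to 84863594, plus strand) and had 55 counts (3.21 CPM) in the C57BL/6 sample and 16 counts (1.01 CPM) in the Ch25h-/- sample. The log2 ratio of -1.67 had a wide interval, -2.57 to -0.85, as so few counts allow. Slc43a3, a carrier of purine bases, begins 72984 bases beyond its end on the same strand (84936579 to 84958509). It had 592 counts (34.6 CPM) and 1004 counts (63.4 CPM), a log2 ratio of 0.87 (0.73 to 1.02), at percentile 97.0 of all measured genes. These neighbours thus had the lowest and the highest ratio of the 26 measured genes. Slc43a2, which encodes LAT4, a further carrier of branched-chain amino acids, lies on chromosome 11 and had 58.9 and 48.3 CPM (-0.29, interval -0.42 to -0.15).

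The remaining measured genes were Slc7a3, a carrier of cationic amino acids, with 29 and 25 counts (-0.10, interval -0.94 to 0.72), and Slc7a6os, with 34.7 and 31.5 CPM (-0.14, interval -0.31 to 0.04). Leaving out Slc7a6os moved the median of the measured genes from -0.09 to -0.08. The arginine carrier genes left out by the choice of members went apart, with 115 and 136 CPM for Slc7a1 and 52.7 and 7.39 CPM for Slc7a2.

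The other 35 genes had a mean of both samples under 1 CPM, and 20 of them had 0 counts in both libraries, which allows up to 0.175 CPM in the C57BL/6 sample and 0.189 CPM in the Ch25h-/- sample (3 counts). The 15 with reads were the glutamate carrier genes Slc1a1 (3 and 3 counts), Slc1a2 (6 and 5) and Slc1a3 (13 and 10), Slc3a1, Slc36a3 (11 and 6), Slc38a3 (10 and 6), Slc38a5 (2 and 0), Slc38a11 (0 and 5), Slc7a4 (0 and 3), Slc7a14 (2 and 0) and 5 SLC6 genes. Of the latter, the neutral amino acid carrier gene Slc6a19 had 21 and 12 counts, the dopamine carrier gene Slc6a3 had 3 and 7, the serotonin carrier gene Slc6a4 had 0 and 3, and Slc6a16 had 0 and 1. The proline carrier gene Slc6a20a had 16 counts in the C57BL/6 sample and 2 in the Ch25h-/- sample, a log2 ratio of -2.89 whose interval ran from -6.05 to -0.80. Exons of Slc6a20a overlap exons of Ccr9 on the other strand. Carriers known from neurons, kidney and gut, such as Slc6a5, Slc7a9 and Slc7a10, were among the 20 genes without a count.

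Lists of genes that sense, answer to or use amino acids were set beside the carriers. In mTORC1 amino acid sensing, 2 of 32 measured genes (6.25%) were called lower, a share near the 5.77% of all measured genes. None was called higher, beside 2.07% of all measured genes. The median log2 ratio of the list was -0.10. The called genes were Sesn1, a sestrin that holds mTORC1 back (118 and 57.5 CPM, -1.03), and Rragd, a Rag GTPase (48 and 22 counts, -1.01). Mtor, with the highest mean CPM of both samples in the list, had 116.5 and 94.11 CPM, a log2 ratio of -0.31 (-0.41 to -0.21). Of 18 measured genes of the amino acid response under ATF4, none was called lower or higher, beside 5.77% and 2.07% of all measured genes. Their median was -0.12. Atf4 itself had 287 and 238 CPM (-0.27, interval -0.33 to -0.21).

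Enzymes that use amino acids held the lowest ratios of the 5 lists. Of 20 measured genes, 4 (20%) were called lower and none higher, beside 5.77% and 2.07% of all measured genes, with a median log2 ratio of -0.10. Gls2, a glutaminase, had 260 counts in the C57BL/6 sample and 33 in the Ch25h-/- sample, a log2 ratio of -2.87 (-3.44 to -2.34). Il4i1, a secreted enzyme that breaks down phenylalanine and tryptophan, had 268 and 61.0 CPM (4589 and 967 counts), a log2 ratio of -2.135 (-2.24 to -2.03). The tryptophan enzyme genes Ido1 (-1.22) and Kynu (-1.01) completed the called genes. Glud1, with the highest mean CPM of both samples in the list, had 202 and 221 CPM (0.13).

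Glutathione genes, downstream of the cystine carrier Slc7a11, had log2 ratios from -0.54 to 0.89, beside -1.28 for Slc7a11. None of 12 measured genes was called lower or higher, beside 5.77% and 2.07% of all measured genes. With 12 genes, a count of 0 lies near those shares. Their median log2 ratio was -0.02. Txnrd1, a thioredoxin reductase gene that the list also holds, had the highest mean CPM of both samples in the list. It had 202 and 193 CPM (-0.06, interval -0.14 to 0.01). Gclc, the catalytic subunit of the first step of glutathione synthesis, had 53.1 and 41.6 CPM (-0.35, interval -0.50 to -0.21), and Gclm, its regulatory subunit, had 12.04 and 16.35 CPM, a log2 ratio of 0.44 (0.17 to 0.71).

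Among 16 measured amino acid and peptide carriers of other families, none was called lower and 1 (6.25%) higher. The shares of all measured genes were 5.77% and 2.07%. The median log2 ratio of the list was -0.27. The called gene was the vesicular glutamate carrier gene Slc17a6, with 9 and 24 counts (1.53, interval 0.37 to 2.82), which reached the 1 CPM filter only through the Ch25h-/- sample. Slc15a3, a lysosomal carrier of histidine and peptides and the gene with the highest mean CPM of both samples in the list, had 142 and 73.2 CPM (-0.96, interval -1.06 to -0.86), just short of 2-fold. The medians of the lists lay between -0.27 and -0.02, and that of all measured genes was 0.01.

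**Figure D4:**
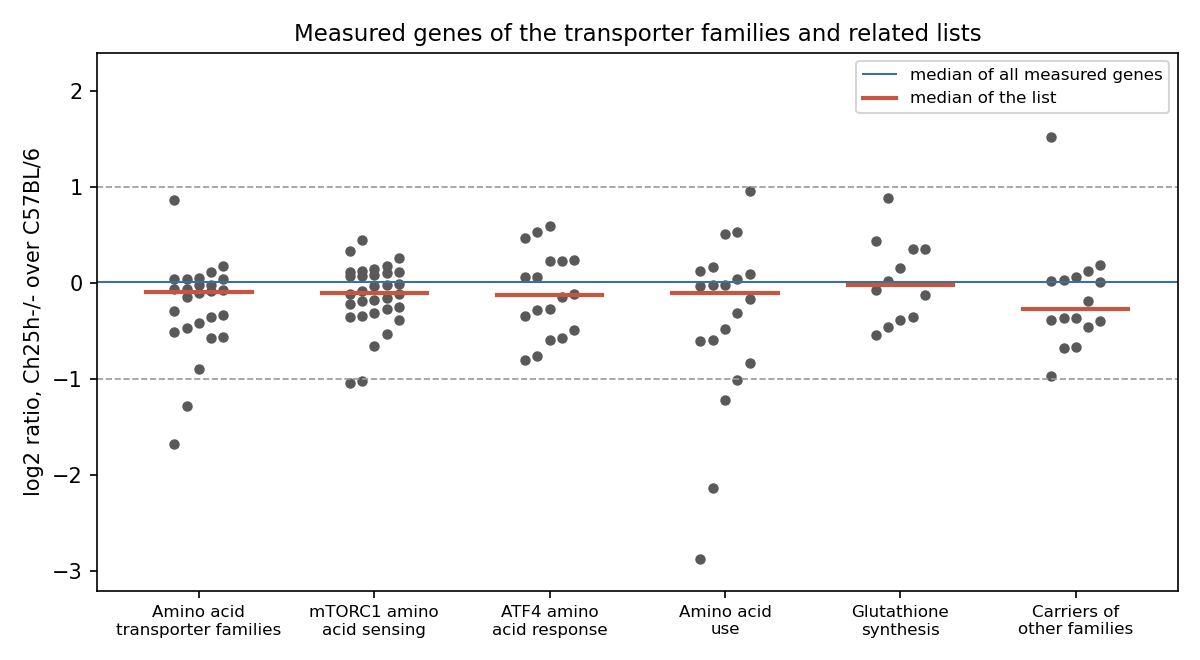
Log2 ratio of the Ch25h-/- sample over the C57BL/6 sample (vertical axis) for the measured genes of the amino acid transporter families and of 5 related lists; each point is a gene and red bars are medians. The blue line is the median of all measured genes and dashed lines mark 2-fold; Gls2 and Il4i1, in the list of amino acid use, are the lowest points.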

How the data were processed

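Each gene's value in the deposited table is a whole count of reads. Per the submitters' processing notes, the tools were edgeR 3.26.8, Subread 1.5.2, featureCounts, GSNAP and FastQC 0.11.9, with the builds GRCm38 and mm10. How strand and multi-mapping reads were handled is not given in the sources used here. CPM used TMM factors (1.01 for C57BL/6, 0.991 for Ch25h-/-) from edgeR 4.0.16 in R 4.3.3, over all 30538 genes. Intervals of ratios are exact Clopper-Pearson intervals of 1 library's share of both counts (scipy 1.17.1). Because PCR copies are not told apart here, reads are not independent, and intervals and floors reflect counting error alone. No prior count was added.

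Positions and exon lengths are those of GENCODE M21 (GRCm38), which holds all 61 IDs under the same symbols. Promoter windows are from RefSeq. The members and lists were chosen with earlier results of these data known. Every measured member is named, as are members with reads and a mean under 1 CPM. Of each related list the text names the called genes, up to 4 per direction, and the gene with the highest mean CPM; Gclc and Gclm were added after their values were seen. Some results are not reported here. The rule also named 3 genes of each marker list, which are not printed; the lists are given by counts and summed levels instead. The calculation was tested on simulated data. Also tried were scaling by upper quartile factors, by total counts and by DESeq2 1.42.0, a prior count of 2, filters at 5 CPM and at 1 count, and other call rules. Figures were drawn with matplotlib 3.10.9.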

Additional observations from a re-analysis of the deposited data

How the results depend on the processing

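Scaling with DESeq2 size factors, total counts or upper quartile factors moved log2 ratios by -0.00493, -0.03 and 0.01, changed the sign of 0 of the 26 measured carriers, and left every count of called carriers and of called list members within 1.5 times. Of the 26 carriers, 9 lay wholly below a ratio of 1 under each scaling. Wholly above it lay 3 with TMM and with upper quartile factors, and 2 with DESeq2 size factors and with total counts. Of all measured genes, 3294 lay below and 3706 above with TMM, but 3619 below and 3380 above with total counts. Calls changed with the filter and the call rule. Only 1 carrier, Slc7a11, was called lower with a filter at 5 CPM, which leaves out Slc43a1, and 1 with an interval wholly beyond 2-fold, which Slc43a1 misses. Slc7a11 is overlapped by annotated genes on the opposite strand, in its introns only, and 1 carrier, Slc43a1, was called lower once such members were left out. At 1.5-fold, 1 carrier was called higher (Slc43a3) and 3 were called lower, with Slc6a12 added. With no filter beyond 1 count, 3 carriers were called lower, Slc6a20a being added.

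Among the lists, called lower in mTORC1 sensing were 1 gene with a prior count of 2, 1 with the 5 CPM filter and 0 with an interval wholly beyond 2-fold. In amino acid use, 2 genes were called lower with that interval, and 7 lower and 1 higher at 1.5-fold. In the ATF4 response, 1 was called lower with no filter, and 3 lower and 1 higher at 1.5-fold. Of glutathione genes, 1 was called higher at 1.5-fold. Of carriers of other families, 0 were called higher with the 5 CPM filter and with the interval beyond 2-fold, 2 with no filter, and 3 were called lower at 1.5-fold. No paired analysis was possible because each genotype has 1 library. The interval reached a median of 0.16 on the log2 scale to either side over the 26 measured carriers, so smaller differences are not resolved for many of them.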
